A study of Rattus norvegicus with 27 samples.

Results

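The cell-death genes followed here are Fas, Tnfrsf1a, Tnfsf10, Casp8, Casp1, Casp4, Casp12, Ripk3, Bid and Bak1, which code for death receptors, a death ligand, caspases, a necroptosis kinase and members of the BCL2 family. A probe set, the group of probes that reads a transcript on the array, was taken as a member where the platform annotation gave it one of these symbols and no other. All 10 genes were found, with 14 probe sets, among 14217 genes measured. Fas had 3 probe sets, Casp8 and Bid had 2 each, and the other genes had 1. The probe set with the highest mean stood for its gene, and the others are given after it.

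Death receptors at the cell surface bind ligands of the tumour necrosis factor family and recruit adaptors that activate the initiator caspase Casp8. Casp8 can kill through effector caspases, or by cutting Bid, whose fragment engages Bak1 at the mitochondrion; where Casp8 is blocked, Ripk3 can drive necroptosis, a lytic death. Casp1, Casp4 and Casp12 belong to the inflammatory caspases, of which the first 2 can cut gasdermin D and open pores in the membrane. Interferon-γ (IFNγ), a T cell cytokine, acts in part through interferon regulatory factors, which bind ISRE elements, and several death genes are known targets. Oligodendrocyte precursor cells (OPCs) are the dividing glia from which myelinating oligodendrocytes form.

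The study asked what IFNγ does to OPCs as they are driven to differentiate. OPCs were taken with A2B5-binding beads from the cortex of rat pups at postnatal days 4 to 6 and expanded with platelet-derived growth factor (PDGF, 20 ng/mL), a mitogen. RNA was measured on 27 Affymetrix arrays, 3 for each of 9 groups: triiodothyronine with IFNγ (T3+IFNγ) at 8, 24, 48 and 96 h, T3 alone at the same times, and PDGF at 0 h. T3 (10 nM), the thyroid hormone, drives differentiation, and IFNγ was given at 10 ng/mL. Each group held donors 1, 2 and 3, and the labels do not say whether a donor is an animal or a litter. T3 and PDGF groups differed also by withdrawal of PDGF and by time in culture, since PDGF arrays were at 0 h only, so that these effects cannot be told apart. The T3 arrays serve in both kinds of comparison, once as the arrays that T3+IFNγ is set against and once as those set against PDGF. A gene was called where the Benjamini-Hochberg adjusted p of limma, a linear model with a shared spread, was under 0.05 over all 14217 genes.

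The arrays fitted their label in part. The oligodendrocyte-lineage gene Olig1 lay between 12.25 and 13.01 on the log2 scale on every array, and Mbp, the myelin basic protein, averaged 14.48 in T3 at 96 h. Of 7 lineage markers, Pdgfra was called higher with IFNγ at 24, 48 and 96 h. With IFNγ Mbp was called lower at 24 h and Mog at 48 and 96 h. With T3 at 96 h Sox10, Mbp and Mog were called higher and Pdgfra and Cspg4 lower. The part of such lineage changes in those of the death genes was not tested. Markers of other glia also gave signal. The log2 of the summed signal of 13 microglia and macrophage markers had medians of 10.98, 11.7, 11.5 and 11.8 in T3+IFNγ at 8, 24, 48 and 96 h and of 10.5, 9.86, 9.44 and 9.31 in T3, against 11.3 in PDGF. Of those 13, 1, 4, 5 and 6 were called higher with IFNγ at 8, 24, 48 and 96 h and none lower, and 0, 0, 5 and 11 were called lower with T3. Of the other marker lists, 1 of 7 for astrocytes (Aldh1l1), 2 of 6 for neurons (Tubb3 and Nefl), 0 of 6 for vascular cells and 1 of 6 for T cells (Cd8a) were called higher with IFNγ at 96 h, and 1 T cell marker, Cd3g, was called lower. The summed signal of the 7 astrocyte markers was above that of the microglia and macrophage markers in every group. Its log2 medians lay between 13.1 (T3 at 8 h) and 14.1 (T3 at 24 h), and Gfap among them reached 12.6. Those of 7 lineage markers lay between 13.9 and 15.2. Sums over different genes do not count cells. Of the 13 microglia and macrophage markers, Cx3cr1 stayed between 5.61 and 6.12 on all arrays, near the median of the table, 5.99. The others varied more, from Itgam (4.59 to 6.05) to C1qb (4.54 to 10.7). Cx3cr1 alone thus does not show a constant level of microglia. Donor 3 had the highest level of the microglia and macrophage markers, on average 0.75 above its group means, against −0.30 and −0.45 for donors 1 and 2. The T3+IFNγ arrays of donor 2 at 8 and 24 h stood apart in RNA quality, with a 3′ minus 5′ difference of the Gapdh control probe sets of 0.37 and 0.11, against −0.26 to 0.07 on the other arrays.

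Most of these death genes were raised by IFNγ. They were chosen with earlier results of these data known, so the shares below describe them and are not a test. With IFNγ, 7 of the 10 were called higher at 8 h, where 3.69% of all genes were, and 8 at 24 h, where 5.96% were. At 48 h 9 of the 10 were called higher against 7.58% of all genes, and at 96 h 9 against 7.91%. No listed gene was called lower at any time, while 1.58%, 6.35%, 8.53% and 5.63% of all genes were at 8, 24, 48 and 96 h. The median change of the 10 genes on the log2 scale was 1.0, 0.95, 1.29 and 1.34, beside −0.04, −0.04, −0.05 and −0.02 over all genes. All 3 T3+IFNγ arrays lay above all 3 T3 arrays for 7, 9, 9 and 10 of the genes at 8, 24, 48 and 96 h, as did those of 7.52%, 11.0%, 14.1% and 17.6% of all genes. In bulk RNA of this kind, fewer cells of a type and less RNA per cell cannot be told apart. Without the 2 T3+IFNγ arrays of donor 2 that stood apart in RNA quality, the counts called higher were again 7, 8, 9 and 9, an alternative chosen after the data were seen.

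**Figure D1:**
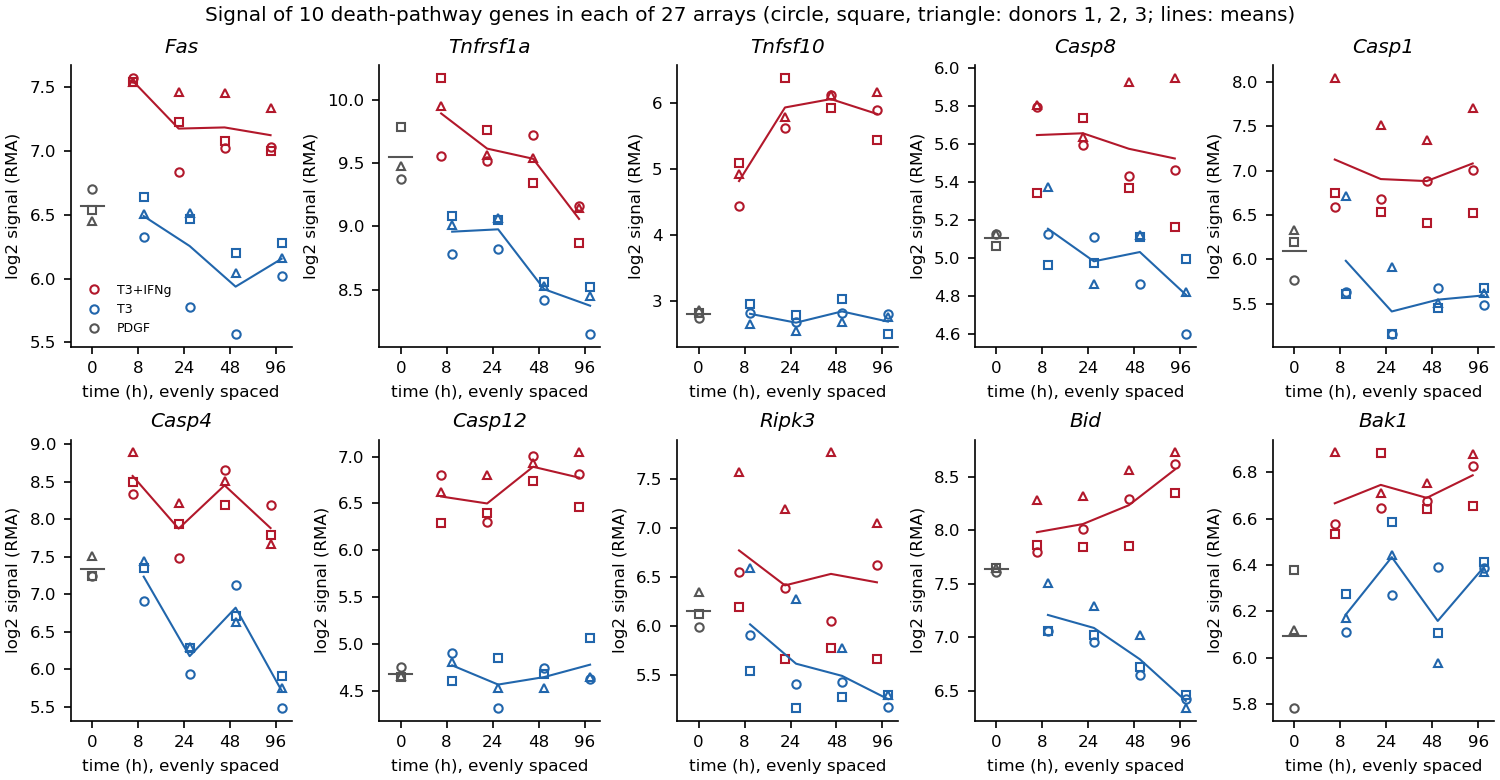
Log2 signal of the 10 genes on each of 27 arrays against time in hours, evenly spaced. T3+IFNγ is red, T3 blue and PDGF at 0 h grey; circles, squares and triangles are donors 1, 2 and 3, and lines join group means. Tnfsf10 lay between 4.43 and 6.38 in T3+IFNγ and between 2.50 and 3.03 in T3.

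Of the 10 genes, that of the ligand had the largest change with IFNγ at each time. Tnfsf10 codes for TRAIL, which binds death receptors and can kill the cell that carries them. At 8 h its log2 signal was 4.43, 5.09 and 4.93 in T3+IFNγ, against 2.81, 2.95 and 2.65 in T3. At 24 h it was 5.62, 6.38 and 5.79 in T3+IFNγ, against 2.68, 2.78 and 2.54 in T3. At 96 h it was 5.89, 5.44 and 6.17 in T3+IFNγ, against 2.80, 2.50 and 2.75 in T3. The groups were far apart at each time, and T3 arrays lay with those of PDGF (2.74, 2.81 and 2.86), close to the lowest value of the whole table, 2.28. The change with IFNγ was 2.01 ± 0.19 at 8 h, then 3.26, 3.22 and 3.15 at 24, 48 and 96 h (limma adjusted p = 3.52e-08, 4.64e-12, 5.93e-12 and 9.06e-12). Here and below ± is the standard error of limma, with 3 arrays a group. It comes from a spread shared by all 9 groups, so it is the same at each time. These changes are at least 4.04-, 9.60-, 9.32- and 8.87-fold, lower bounds because the T3 arrays were not shown to be above background.

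Fas, the receptor of Fas ligand, rose at all 4 times, and the difference of its change at 96 h from that at 8 h was −0.09 ± 0.26. Its log2 signal at 8 h was 7.57, 7.54 and 7.54 in T3+IFNγ, against 6.33, 6.64 and 6.51 in T3, and at 96 h it was 7.03, 7.0 and 7.34 in T3+IFNγ, against 6.02, 6.28 and 6.16 in T3. The arrays did not overlap at any time, and the PDGF arrays (6.71, 6.54 and 6.45) lay below every T3+IFNγ array. The change was 1.06 ± 0.19, 0.92, 1.25 and 0.97 at 8, 24, 48 and 96 h (adjusted p = 0.000464, 0.0015, 3.9e-05 and 0.000732). At 24 h the call was lost without donor 2 (adjusted p = 0.0524) and with only the compared groups in the fit (adjusted p = 0.0636). A second Fas probe set, averaging 4.51, rose by 0.86, 0.64, 0.62 and 0.47 at 8, 24, 48 and 96 h. The third, averaging 4.14, had changes between −0.24 and 0.10 and was called at no time, so the Fas probe sets did not all move together.

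Tnfrsf1a, the main receptor of tumour necrosis factor, rose with IFNγ at all 4 times. At 8 h it read 9.56, 10.17 and 9.95 in T3+IFNγ, against 8.78, 9.09 and 9.01 in T3. Tnfrsf1a at 96 h read 9.16, 8.87 and 9.15 in T3+IFNγ, against 8.15, 8.52 and 8.45 in T3. The groups did not overlap at any time, and both averaged lower at 96 h (9.06 and 8.38) than at 8 h (9.89 and 8.96). The change with IFNγ was 0.93 ± 0.15, 0.64, 1.03 and 0.68 at 8, 24, 48 and 96 h (limma adjusted p = 0.00012, 0.00473, 2.11e-05 and 0.00206), lost without donor 3 at 24 h (adjusted p = 0.109) and 96 h (adjusted p = 0.110).

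Casp8, the initiator that death receptors activate, lay under the median of the table, 5.99, on every array and rose by less than 1 log2 unit. Its log2 signal at 24 h was 5.59, 5.73 and 5.64 in T3+IFNγ, against 5.11, 4.97 and 4.86 in T3. At 96 h it was 5.46, 5.16 and 5.95 in T3+IFNγ, against 4.6, 5.0 and 4.82 in T3. The groups were apart at these times and at 48 h, while at 8 h they overlapped. The change was 0.49 ± 0.17 at 8 h (adjusted p = 0.123, not called) and 0.67, 0.54 and 0.72 at 24, 48 and 96 h (adjusted p = 0.0107, 0.0338 and 0.00582). The later calls rest on few arrays: leaving out single donors gave adjusted p of 0.0883 and 0.0573 at 24 h (donors 2 and 3), 0.144, 0.0508 and 0.1997 at 48 h (donors 1, 2 and 3), and 0.0980 and 0.111 at 96 h (donors 1 and 3). The 48 h call was also lost with only the compared groups in the fit (adjusted p = 0.0634). The other Casp8 probe set was called higher at 24 and 96 h, by 0.82 and 0.76, and had 0.41 and 0.40 at 8 and 48 h (adjusted p = 0.424 and 0.224).

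The 3 inflammatory caspase genes are neighbours in the rat genome, on chromosome 8 of the GRCr8 assembly, with Casp1 at chr8:10746338-10882295, Casp4 at chr8:10883817-10919978 and Casp12 at chr8:10927188-10954442. All 3 rose with IFNγ from 24 h on, by 2.53-fold or more at each time. Casp12, a caspase of the endoplasmic reticulum, read 6.81, 6.29 and 6.62 in T3+IFNγ at 8 h, against 4.9, 4.6 and 4.8 in T3. By 96 h it read 6.82, 6.46 and 7.05 in T3+IFNγ, against 4.63, 5.06 and 4.64 in T3. The groups stood more than 1 log2 unit apart on every array, and PDGF arrays (4.75, 4.65 and 4.65) lay with T3. Its change was 1.80 ± 0.17, 1.93, 2.25 and 2.00 at 8, 24, 48 and 96 h (adjusted p = 4.16e-08, 1.01e-08, 6.93e-10 and 4.86e-09).

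Casp4, which in mouse senses lipopolysaccharide inside the cell, read 8.34, 8.50 and 8.89 in T3+IFNγ at 8 h, against 6.91, 7.35 and 7.45 in T3. Casp4 at 96 h read 8.19, 7.79 and 7.67 in T3+IFNγ, against 5.48, 5.91 and 5.75 in T3. The groups were apart at all times. The change was 1.34 ± 0.20, 1.70, 1.63 and 2.17 at 8, 24, 48 and 96 h, or 4.50-fold at 96 h (limma adjusted p = 5.98e-05, 1.59e-06, 2.57e-06 and 2.62e-08). The IFNγ calls of Casp12, Casp4 and Tnfsf10 held at each time under all 12 alternatives run.

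Casp1, which matures interleukin-1β, varied more between donors. At 8 h it read 6.59, 6.75 and 8.04 in T3+IFNγ for donors 1, 2 and 3, against 5.63, 5.61 and 6.71 in T3. Casp1 at 96 h read 7.01, 6.53 and 7.71 in T3+IFNγ, against 5.49, 5.67 and 5.62 in T3. Donor 3 was the highest T3+IFNγ array at each time, and at 8 h its T3 array reached above a T3+IFNγ array of another donor. The change was 1.14 ± 0.37 at 8 h (adjusted p = 0.0850, not called) and 1.49, 1.34 and 1.49 at 24, 48 and 96 h (adjusted p = 0.00820, 0.0140 and 0.00725). With donor as a replicate block in the fit the change at 8 h was called too (adjusted p = 0.00227), and the donors' own changes there were 0.96, 1.14 and 1.33 in donors 1, 2 and 3. Without the block, calls were lost at 24 and 48 h without donor 1 (adjusted p = 0.0703 and 0.0686) or donor 2 (adjusted p = 0.104 and 0.0938), and at 96 h without donor 1 (adjusted p = 0.0746).

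The promoter windows of these genes were searched for the letters to which interferon regulatory factors bind. RefSeq windows on GRCr8, from 250 bases before to 50 bases after an annotated start, were found for 8 of the 10 genes, and not for Casp4 and Casp8. That start was not always the outer end of the gene. The windows of Casp1, Tnfsf10, Bid and Bak1 lay wholly inside the span of the gene, and their outer ends were not searched. The span of Casp1 begins at chr8:10746338, far before its window. The ISRE core was searched as GAAA, any 2 bases and GAAA, on both strands. Of 33469 rat promoters, 3.92% held the ISRE core. Of the 8 windows 3 held it: that of Casp12 at −38 from the start, that of Fas at 38 and that of Casp1 at −28. Casp12 and Casp1 held the same 10 letters at the ISRE core, TTTCAGTTTC. These letters were counted over all windows because both genes held them, and 0.308% had them on either strand. That share is thus a description and not a test. The windows of Casp12 and Fas, called higher with IFNγ at all 4 times, and of Casp1, added after its match was seen, are shown so that these letters can be read in place, with the matches in capitals. Casp12 is at chr8:10926938-10927237, Fas at chr1:241211905-241212204 and Casp1 at chr8:10872580-10872879, all on the plus strand.
Casp12: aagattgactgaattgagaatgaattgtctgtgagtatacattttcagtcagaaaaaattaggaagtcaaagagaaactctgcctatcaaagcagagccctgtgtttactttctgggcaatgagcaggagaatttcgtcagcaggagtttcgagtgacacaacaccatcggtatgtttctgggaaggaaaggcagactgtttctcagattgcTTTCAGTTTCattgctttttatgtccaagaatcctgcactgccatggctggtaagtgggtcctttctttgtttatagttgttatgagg
Fas: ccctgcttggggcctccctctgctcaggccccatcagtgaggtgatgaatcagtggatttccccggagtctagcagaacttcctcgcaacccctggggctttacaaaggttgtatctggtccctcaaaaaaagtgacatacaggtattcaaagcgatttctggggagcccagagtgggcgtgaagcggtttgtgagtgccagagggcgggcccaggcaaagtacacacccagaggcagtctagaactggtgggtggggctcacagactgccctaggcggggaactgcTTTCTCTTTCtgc
Casp1: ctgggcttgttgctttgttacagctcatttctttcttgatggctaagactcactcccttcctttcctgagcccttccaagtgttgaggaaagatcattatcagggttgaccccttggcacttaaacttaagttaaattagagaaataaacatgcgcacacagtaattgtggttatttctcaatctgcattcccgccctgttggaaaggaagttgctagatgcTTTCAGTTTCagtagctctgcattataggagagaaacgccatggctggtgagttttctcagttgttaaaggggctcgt
The other windows, of Tnfrsf1a, Tnfsf10, Ripk3, Bid and Bak1, did not hold these letters. A match is a description of letters and was not tested as a binding site.

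Ripk3, the kinase that drives necroptosis, was called at no time in the fit of all 9 groups without donor, although every donor was higher with IFNγ. At 48 h it read 6.05, 5.77 and 7.78 in T3+IFNγ for donors 1, 2 and 3, against 5.42, 5.27 and 5.77 in T3. Ripk3 at 96 h read 6.62, 5.66 and 7.06 in T3+IFNγ, against 5.17, 5.29 and 5.29 in T3. The groups overlapped at 8, 24 and 48 h and were apart at 96 h, and the SD among T3+IFNγ arrays (0.71 to 1.09) was the widest of the 10 genes at 24, 48 and 96 h. The change was 0.76, 0.80, 1.04 and 1.19 at 8, 24, 48 and 96 h, each ± 0.47 (adjusted p = 0.504, 0.317, 0.142 and 0.0993). With donor as a replicate block it was called at 24, 48 and 96 h (adjusted p = 0.0409, 0.00649 and 0.00245) and not at 8 h, and with only the compared groups in the fit at 96 h (adjusted p = 0.0385).

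Ripk3 moved with the microglia and macrophage markers. Over the 27 arrays its log2 signal correlated with the log2 of their summed signal at r = 0.92, and its deviations from the group means at r = 0.93. The like values were 0.89 and 0.90 for Casp1 and 0.88 and 0.90 for Bid. For Tnfsf10 they were 0.70 and 0.11, for Casp12 0.69 and 0.28, and for Casp4 0.76 and 0.37. Fas, Tnfrsf1a, Casp8 and Bak1 had 0.76 and 0.38, 0.71 and 0.28, 0.81 and 0.54, and 0.56 and 0.34. These points share arrays, treatments and donors, and the values are descriptions. Donor 3, high in the markers, lay 0.58 above the group means in Ripk3, 0.45 in Casp1 and 0.19 in Bid, against 0.01 in Tnfsf10 and 0.04 in Casp12. The part of these markers in the changes of Ripk3, Casp1 and Bid was not tested.

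**Figure D2:**
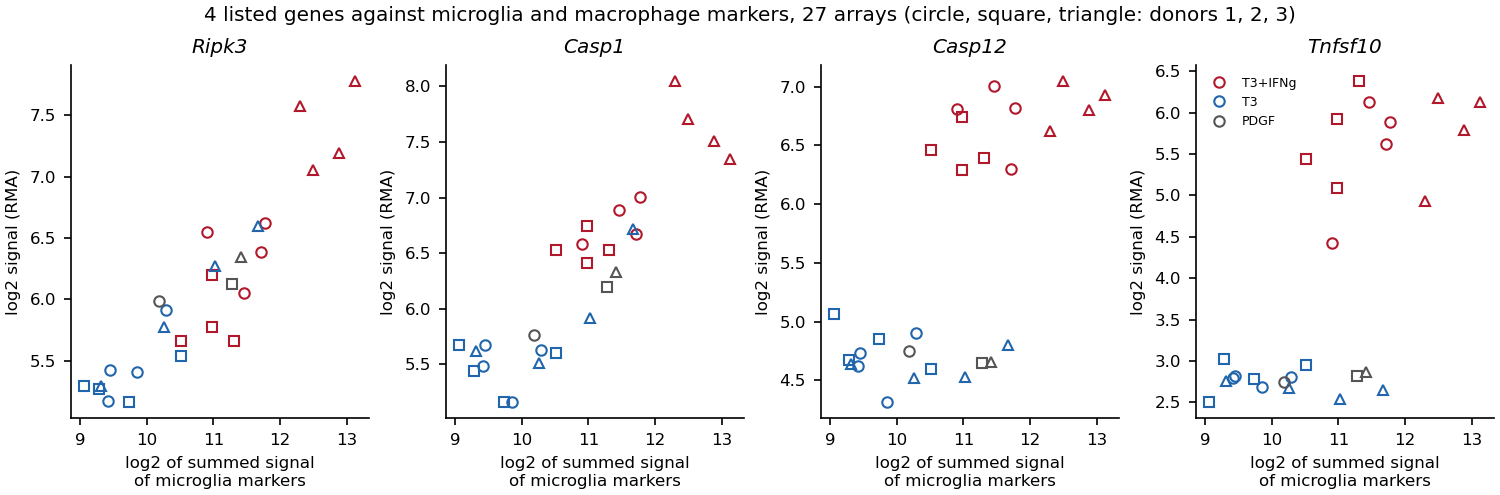
Log2 signal of Ripk3, Casp1, Casp12 and Tnfsf10 on each of 27 arrays against the log2 of the summed signal of 13 microglia and macrophage markers. T3+IFNγ is red, T3 blue and PDGF grey, and circles, squares and triangles are donors 1, 2 and 3. Ripk3 climbs along the marker sum (r = 0.92), while Casp12 and Tnfsf10 fall into a high T3+IFNγ cloud and a low cloud of T3 and PDGF.

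Bid, which carries the signal of Casp8 to the mitochondrion, drew apart with time. At 8 h it read 7.80, 7.86 and 8.28 in T3+IFNγ, against 7.06, 7.06 and 7.51 in T3. At 48 h it read 8.29, 7.85 and 8.56 in T3+IFNγ, against 6.65, 6.72 and 7.02 in T3. Bid at 96 h read 8.62, 8.35 and 8.73 in T3+IFNγ, against 6.42, 6.46 and 6.34 in T3. T3+IFNγ means were 7.98, 8.06, 8.23 and 8.56 at 8, 24, 48 and 96 h while T3 means were 7.21, 7.09, 6.79 and 6.41, and no arrays overlapped. The change with IFNγ was 0.77 ± 0.17, 0.97, 1.44 and 2.16, or 1.71-fold at 8 h and 4.47-fold at 96 h (limma adjusted p = 0.00554, 0.000334, 1.53e-06 and 1.77e-09). The call at 8 h was lost without donor 1 (adjusted p = 0.0710) or donor 2 (adjusted p = 0.0955), and with only the compared groups in the fit (adjusted p = 0.0941). The other Bid probe set rose by 1.14 at 48 h and 1.80 at 96 h, and was not called at 8 h (0.36, adjusted p = 0.595, arrays overlapping) or 24 h (0.64, adjusted p = 0.0854).

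Bak1, which forms pores in the mitochondrial membrane, had the smallest changes of the 10 at 8, 24, 48 and 96 h. At 48 h it read 6.68, 6.64 and 6.75 in T3+IFNγ, against 6.39, 6.11 and 5.98 in T3. At 96 h it read 6.83, 6.66 and 6.88 in T3+IFNγ, against 6.39, 6.42 and 6.37 in T3. The arrays did not overlap at any time although the gaps were small. The change was 0.48 ± 0.13, 0.31, 0.53 and 0.40 at 8, 24, 48 and 96 h (adjusted p = 0.0291, 0.134, 0.00587 and 0.0448), called at all times but 24 h. It was lost at 8 h with only the compared groups in the fit (adjusted p = 0.130), without donor 2 or 3 at 8 h (adjusted p = 0.0795 and 0.552) and at 48 h (adjusted p = 0.0645 and 0.226), and at 96 h without donor 1, 2 or 3 (adjusted p = 0.0872, 0.0900 and 0.365) and with the arrays centred on their medians (adjusted p = 0.0689), all probe sets tested (adjusted p = 0.0548) or an intensity trend (adjusted p = 0.0524).

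**Figure D3:**
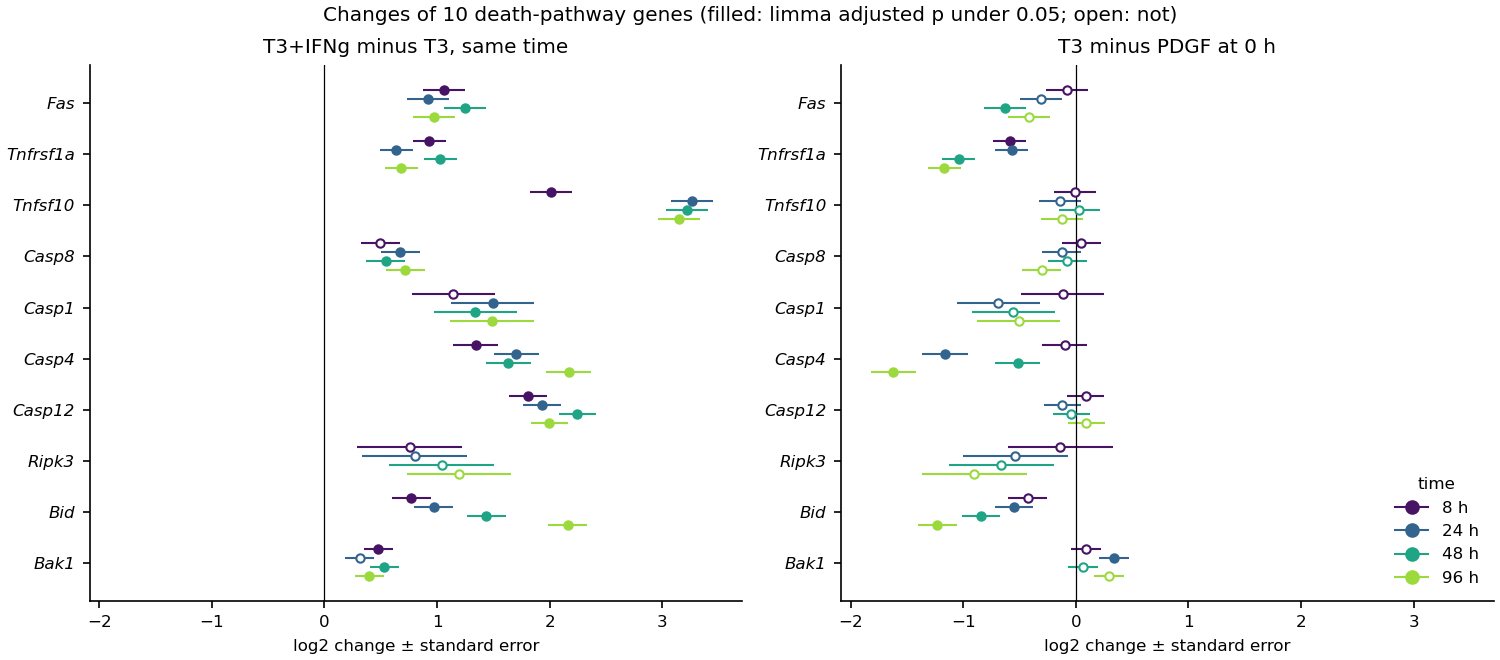
Log2 change ± standard error of the 10 genes at 8, 24, 48 and 96 h, from dark to light. The left panel shows T3+IFNγ minus T3 at the same time and the right panel T3 minus PDGF at 0 h; filled points had a limma adjusted p under 0.05. Points on the left all lie above 0, from 0.31 to 3.26, and those on the right between −1.62 and 0.34.

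The difference between the change at 96 h and that at 8 h was tested itself, with all 9 groups in the fit. It was called for Bid (1.39 ± 0.24, adjusted p = 0.000939) and Tnfsf10 (1.14 ± 0.26, adjusted p = 0.0123), both larger at 96 h, and for no other listed gene, where 2.24% of all genes were called higher and 2.08% lower. All 3 donors had the larger change at 96 h in both genes. The second Bid probe set gave 1.43 ± 0.32 (adjusted p = 0.0115). For Tnfsf10 the call was lost without donor 1 (0.97, adjusted p = 0.122) and without donor 3 (1.13, adjusted p = 0.192). Casp4 had 0.83 (adjusted p = 0.116), and the other 7 genes had between −0.25 and 0.44.

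In differentiation with T3, 1, 4, 4 and 3 of these genes were called at 8, 24, 48 and 96 h, and all but Bak1 at 24 h were lower. At 8 h 1 of the 10, Tnfrsf1a, was called lower in T3 than in PDGF and none higher, where 5.37% of all genes were called lower and 7.31% higher. At 24 h Tnfrsf1a, Casp4 and Bid were called lower and Bak1 higher, with 17.8% and 17.1% of all genes. At 48 h Tnfrsf1a, Casp4, Bid and Fas were called lower and none higher, with 25.7% and 17.5%. At 96 h Tnfrsf1a, Casp4 and Bid were called lower and none higher, with 29.5% and 23.4%. The 3 or 4 of 10 called lower from 24 h on thus stand against a large share of all genes called lower. With donor as a replicate block 2, 5, 5 and 5 of the 10 were called. Without the block 1802, 4967, 6132 and 7528 of all 14217 genes were called either way at 8, 24, 48 and 96 h. For T3 the shares of all genes called with the block are not given here. The counts with the block are hence not read as particular to these genes. The medians of the 10 were −0.09, −0.42, −0.53 and −0.46, beside medians of all genes between −0.004 and 0.01.

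Tnfrsf1a was lower in T3 at each time, at 8.15, 8.52 and 8.45 in T3 at 96 h against 9.37, 9.79 and 9.48 in PDGF. Tnfrsf1a fell by 0.59, 0.57, 1.04 and 1.17 at 8, 24, 48 and 96 h (adjusted p = 0.0115, 0.00378, 4.29e-06 and 4.13e-07), and the call was lost at 8 h without donor 2 (adjusted p = 0.0950) or donor 3 (adjusted p = 0.132) and at 24 h without donor 3 (adjusted p = 0.0591). Casp4 was at 5.48, 5.91 and 5.75 in T3 at 96 h against 7.25, 7.24 and 7.51 in PDGF, well apart. It had no call at 8 h (−0.10) and fell by 1.16, 0.51 and 1.62 at 24, 48 and 96 h (adjusted p = 7.04e-05, 0.0424 and 3.35e-07), so that the decrease was smaller at 48 h than on either side. The 48 h call was lost without donor 2 or 3 (adjusted p = 0.219 and 0.346). Bid was at 6.42, 6.46 and 6.34 in T3 at 96 h against 7.61, 7.64 and 7.65 in PDGF. It fell by 0.55, 0.84 and 1.23 at 24, 48 and 96 h (limma adjusted p = 0.0146, 0.000311 and 1.76e-06), the first lost without donor 1 or 2 (adjusted p = 0.138 and 0.0967), and with the replicate block it was called at 8 h as well (−0.43, adjusted p = 0.0152). The other Bid probe set was called at no time with T3, at −0.26, −0.52 and −0.53 at 24, 48 and 96 h (adjusted p = 0.490, 0.0849 and 0.0630).

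The remaining genes had few calls with T3 in the fit of all 9 groups without donor. Fas fell at 48 h by 0.63 (adjusted p = 0.0084), and had −0.41 at 96 h (adjusted p = 0.0694). At 96 h it was called with the replicate block (adjusted p = 0.0246) and with only the compared groups in the fit (adjusted p = 0.0120). The other Fas probe sets did not share this fall, with −0.04 (adjusted p = 0.856) and 0.22 (adjusted p = 0.0715) at 48 h, and neither was called with T3 at any time. Bak1 was 0.34 higher at 24 h (adjusted p = 0.0461), where T3 and PDGF arrays overlapped, and this call was lost without any 1 of the donors (adjusted p = 0.0775 to 0.204). Ripk3 had −0.66 at 48 h and −0.90 at 96 h, and Casp1 −0.69 at 24 h, none called. With the replicate block these 3 values were called (adjusted p = 0.0443, 0.00596 and 0.0221). With only the compared groups in the fit, Ripk3 was called at 48 and 96 h (adjusted p = 0.00744 and 0.000178). In that fit Casp1 was called at 48 and 96 h as well (−0.55 and −0.50, adjusted p = 0.0186 and 0.0201). The T3 arrays of Ripk3 did not overlap those of PDGF at 48 and 96 h. Casp8 had changes between −0.30 and 0.05 and its other probe set between −0.21 and 0.15, none called. Casp12 had changes between −0.12 and 0.10, with a standard error of 0.17, in the same T3 arrays that served for its IFNγ change. Tnfsf10 had changes between −0.14 and 0.03, but it lay near the lowest value of the table in both T3 and PDGF, so that a decrease could not have been seen. The microglia and macrophage markers were lower with T3 as well, with a median change of −1.66 at 96 h, and their part in the decreases was not tested.

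**Figure D4:**
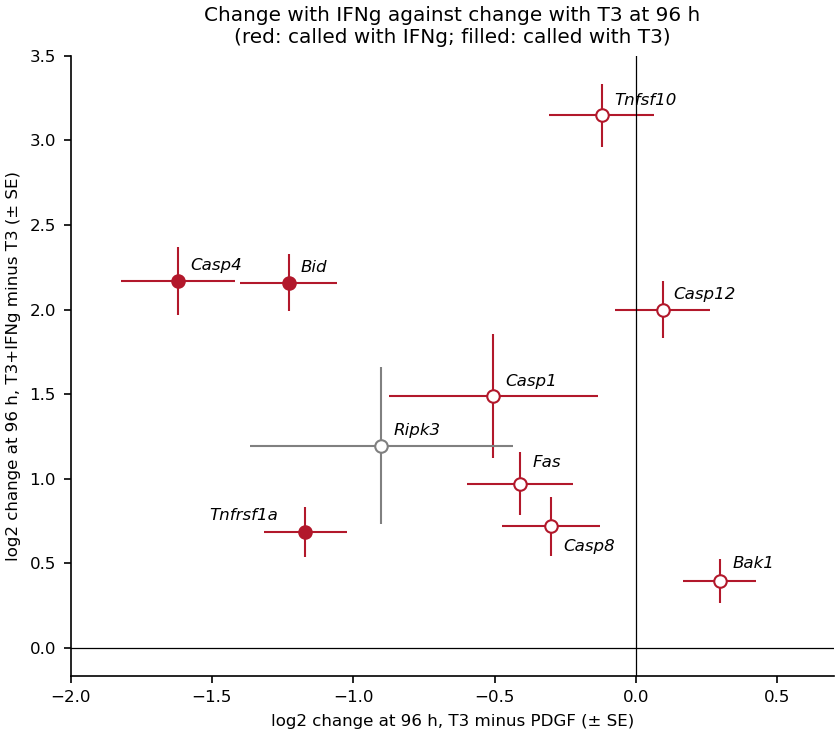
Log2 change at 96 h of T3+IFNγ minus T3 (vertical) against that of T3 minus PDGF (horizontal), each ± standard error, for the 10 genes. Red genes were called with IFNγ, filled ones with T3; the T3 arrays are shared by both axes. Casp4, Bid and Tnfrsf1a lie far left, while Tnfsf10 and Casp12 lie near 0 on the T3 axis and at 3.15 and 2.00 on the IFNγ axis.

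The values of single genes in the 2 kinds of comparison, which share the T3 arrays, were these. Tnfsf10, low in T3 and PDGF alike, and Casp12 had a call with IFNγ at each time and none with T3. Casp4, Bid and Tnfrsf1a were called lower with T3 at 24, 48 and 96 h and higher with IFNγ at all 4 times, and Fas, also called higher with IFNγ at all 4 times, was called lower with T3 at 48 h. The T3+IFNγ arrays of Casp4, Bid and Tnfrsf1a at 96 h averaged 7.88, 8.56 and 9.06, set against 5.71, 6.41 and 8.38 in T3 and 7.33, 7.63 and 9.55 in PDGF. Bid and Casp4 hence averaged higher in T3+IFNγ than in PDGF and Tnfrsf1a lower, a comparison that was not tested. No listed gene was called higher with T3 except Bak1 at 24 h.

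Among all genes, those most like each member over the 27 arrays were named by Pearson's r, as a description of points that share treatments and donors. Tnfsf10 was closest to Oas1a, Il18bp and RT1-Da (r = 0.98 each), and Casp12 to Il15, Parp14 and Ifi35 (r = 0.98 each). Ripk3 was closest to Fcgr1a (0.96), Cd33 and Arhgap9 (0.94 each), Casp1 to Ptpn18 (0.95), Clec12a and Tagap (0.94 each), and Bid to Lyz2, Anxa3 (0.95 each) and Srgn (0.93). Fas was closest to Serpinb9 (0.93), RT1-DMa and Mcub (0.92 each), and Casp8 to Tagap (0.90), RT1-T24-3 and Icam1 (0.89 each). Casp4 was closest to Pfkp (0.96), Psmb2 and Ube2l6 (0.94 each), Tnfrsf1a to Chst10, Kars1 and Sgsm2 (0.94 each), and Bak1 to Pygb (0.92), Plaat3 and Hivep1 (0.88 each). Within the list, the closest pairs included Casp12 with Tnfsf10 (r = 0.96) and Casp1 with Ripk3 (r = 0.88).

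The other genes of these pathways, 57 measured in 9 role groups, were tested in the same fits. With IFNγ, 9, 12, 17 and 14 of them were called higher at 8, 24, 48 and 96 h (15.8%, 21.1%, 29.8% and 24.6%), where 3.69%, 5.96%, 7.58% and 7.91% of all genes were. With IFNγ 0, 1, 2 and 2 of them were called lower, where 1.58%, 6.35%, 8.53% and 5.63% of all genes were, and their median changes were 0.09, 0.07, 0.12 and 0.19. With T3 the shares lay nearer to those of all genes: 3, 10, 9 and 15 were called higher (5.26%, 17.5%, 15.8% and 26.3%), where 7.31%, 17.1%, 17.5% and 23.4% of all genes were. With T3 3, 12, 16 and 18 were called lower (5.26%, 21.1%, 28.1% and 31.6%), where 5.37%, 17.8%, 25.7% and 29.5% of all genes were. The lists too were chosen with earlier results of these data known, so these shares are a description and not a test. The called genes with the largest changes of each group are named.

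Among 9 receptor adaptors and regulators, 4, 5, 5 and 4 rose with IFNγ at 8, 24, 48 and 96 h and none fell. Ripk2, a kinase of the NOD receptors, rose by 1.55, 2.07, 2.59 and 1.77. Cflar, which codes for FLIP, the inhibitor of Casp8 at the receptor, rose by 1.91, 2.08, 1.93 and 2.26 (limma adjusted p = 3.18e-10 at 8 h and 1.18e-11 at 96 h). Ripk1, the partner of Ripk3, rose by 1.54, 1.2, 1.52 and 0.96. With T3 at 96 h, 3 rose and 4 fell, among them Tnfaip3 (2.32) and Cyld (1.60), both enzymes that remove ubiquitin, which rose.

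Of 5 genes of necroptosis, pyroptosis and the inflammasome, 2, 2, 4 and 3 rose with IFNγ. Zbp1, a nucleic acid sensor that engages Ripk3, rose by 1.5, 3.36, 3.37 and 2.64 at 8, 24, 48 and 96 h (adjusted p = 4.4e-06, 2.92e-12, 2.69e-12 and 2.38e-10). Gsdmd, the gasdermin that Casp1 cuts, rose by 2.09, 2.95, 2.15 and 2.26. Pycard, the adaptor of the inflammasome, rose by 1.30 and 1.92 at 48 and 96 h. Il18 and Il1b, cytokines that Casp1 matures, fell with T3 at 96 h, by 2.91 and 1.33.

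Several genes that oppose death also rose. Serpinb9, an inhibitor of granzyme B, rose by 2.89, 3.53, 3.23 and 3.02 with IFNγ at 8, 24, 48 and 96 h (limma adjusted p = 2.36e-12, 4.46e-14, 2.1e-13 and 6.82e-13). Of the 7 inhibitors of death, 2, 2, 4 and 3 rose and 0, 0, 1 and 1 fell. Birc2, an inhibitor of apoptosis protein, rose by 0.50, 0.50 and 0.89 at 8, 24 and 96 h, and Faim2, an inhibitor of Fas killing, fell by 0.76 and 1.2 at 48 and 96 h. With T3 at 96 h Faim2 rose by 2.53 and Birc5, survivin, which is also used in cell division, fell by 3.90. Among 5 BCL2 family genes that oppose death, Bcl2a1 rose by 1.84, 2.12 and 2.19 at 24, 48 and 96 h and Mcl1 by 0.47 and 0.43 at 8 and 24 h, and with T3 at 96 h Bcl2l1 rose by 0.88 and Bcl2a1 fell by 1.54.

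Of 9 further BCL2 family genes that promote death, 0, 0, 1 and 0 rose and 0, 0, 0 and 1 fell with IFNγ, and with T3 at 96 h 5 rose and 2 fell. Bmf, a BH3-only protein, rose by 1.67 with T3 at 96 h and fell by 1.26 with IFNγ at that time (adjusted p = 5.4e-12 and 2.72e-09), 2 comparisons that share the T3 arrays. Bcl2l11, also BH3-only, rose by 0.94 with IFNγ at 48 h, and Bok fell by 2.26 with T3 at 96 h. None of 3 other caspases was called with IFNγ, and with T3 at 96 h Casp2 fell by 1.48 and Casp6 rose by 1.05.

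Among 8 genes of the apoptosome and effectors, 0, 1, 0 and 1 rose and 0, 1, 1 and 0 fell with IFNγ. Apaf1, the scaffold of the apoptosome, rose by 0.53 at 24 h, while Aifm1 and Diablo, released by mitochondria in apoptosis, fell by 0.30 at 24 h and 0.45 at 48 h. With T3 at 96 h Apaf1 fell by 0.74 and Parp1, a DNA repair enzyme that caspases cut, by 1.59. Of 5 death ligands Ltb rose by 1.10 with IFNγ at both 48 and 96 h, and Tnfsf12 fell by 0.44 with T3 at 96 h. Of 6 death receptors Ltbr, the receptor of Ltb, rose by 0.72 and 0.77 with IFNγ at 48 and 96 h and fell by 0.82 with T3 at 96 h, while Ngfr rose by 1.14 with T3.

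**Figure D5:**
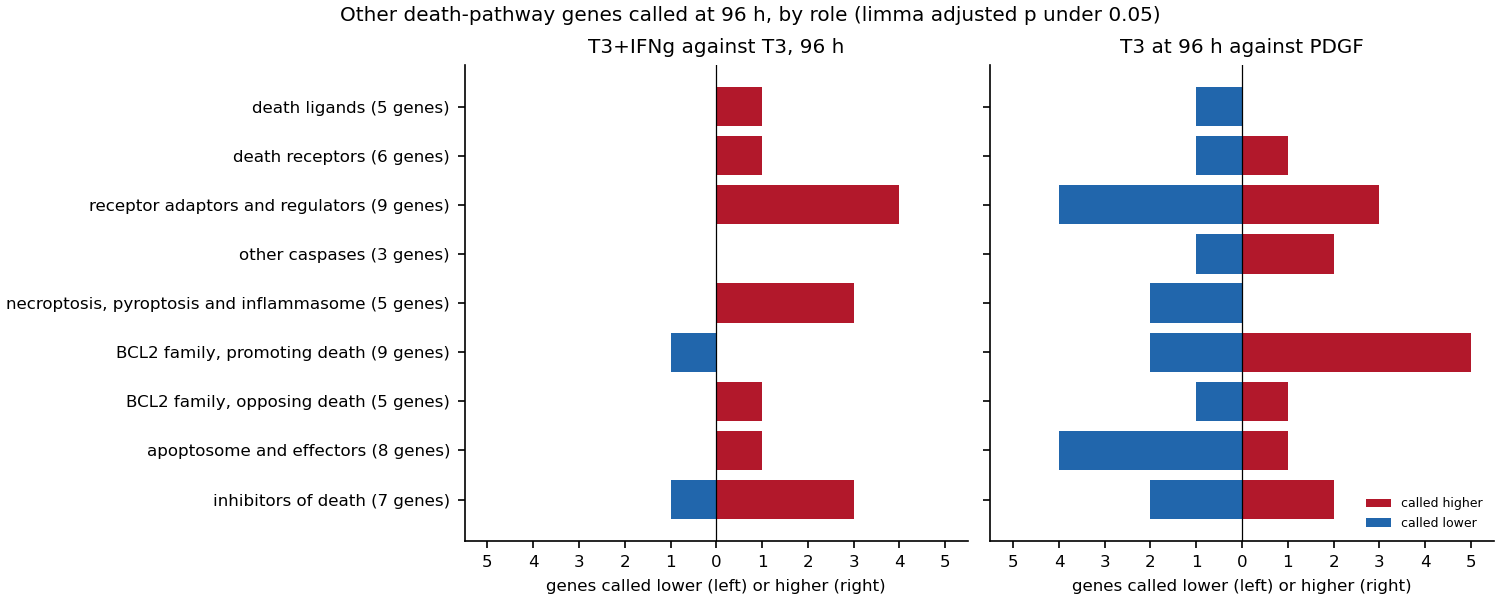
Numbers of the 57 other death-pathway genes called higher (right, red) or lower (left, blue) at 96 h, by role, with T3+IFNγ against T3 in the left panel and T3 against PDGF in the right panel. With IFNγ 14 were called higher and 2 lower, beside 7.91% and 5.63% of all genes, and with T3 15 higher and 18 lower, beside 23.4% and 29.5% of all genes.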

How the data were processed

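The authors deposited RMA values: background corrected, quantile normalized and summarized per probe set as log2 signal, with no version given in their notes, which also name limma. The table holds 31099 probe sets, 57 of them controls. The platform annotation gives 1 symbol for 20832, several for 436 and none for 9831, and only the first were used, at the brightest probe set a gene, which leaves 14217 genes. Values ran between 2.28 and 14.5, and array medians between 5.95 and 6.03. No filter on low values was applied. On arrays the number of replicates, 3, limits the precision.

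In limma 3.58.1 (R 4.3.3) each of the 9 groups had its own mean in a single fit of the 27 arrays, followed by eBayes and, in each comparison, Benjamini-Hochberg adjustment over all genes. Further probe sets of the listed genes were adjusted over all probe sets that are not controls. The code was tested on simulated data. Python 3.11.15, pandas 2.3.3, NumPy 2.4.6 and matplotlib 3.10.9 served for tables and plots. Samples were grouped by their labels. Donor numbers pair the samples, because the labels give the donor: deviations from group means correlated at a median of 0.31 between groups of the same donor (108 pairs) and −0.17 between different donors (216 pairs).

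All 10 listed genes were named, and of each role group up to 3 called genes with the largest change with IFNγ at any time and up to 2 with the largest change with T3 at 96 h. The members and lists were chosen with earlier results of these data known. Promoter windows and positions come from RefSeq, assembly GRCr8, and another motif listed for the promoter search is not reported here. Alternatives were the donor as a block, median centring, a filter on dim probe sets, all probe sets tested, the most variable probe set of a gene, an intensity trend, only the compared groups in the fit, each donor left out, and a change of at least 2-fold. One alternative, without 2 arrays of donor 2, was added after the data were seen.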

Additional observations from a re-analysis of the deposited data

Results flagged for a closer look

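The change with IFNγ differed between 96 h and 8 h in 2 of the 10 genes, both with the larger change at 96 h; 2.24% of all genes were called in that direction. The difference was 1.39 on the log2 scale for Bid (limma adjusted p = 0.000939), with changes of 2.16 at 96 h and 0.77 at 8 h. The 13 microglia and macrophage markers, with which Bid moved, had a median difference of 1.32, none of them called, and their part in the Bid value was not tested. For Tnfsf10 the difference was 1.14 (adjusted p = 0.0123), with changes of 3.15 at 96 h and 2.01 at 8 h, and the call was lost without donor 1 (adjusted p = 0.122) and without donor 3 (adjusted p = 0.192).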

How the results depend on the processing

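No value of a listed gene, 1071 values under 12 alternatives in all, that had been called changed its sign. For many of these values that outcome was fixed. The donor block, dim filter, all probe sets, intensity trend, compared groups only and 2-fold settings leave the change itself as it was. The sign could differ only with median centring, another probe set of the gene or arrays left out. The replicate block for donor, a paired analysis, raised the count of listed genes called with T3 to 2 at 8 h, against 1 without it, and to 5 at 96 h, against 3; with IFNγ the block gave 8, 9, 10 and 10 at 8, 24, 48 and 96 h. A fit of only the compared groups gave 5, 7, 8 and 10 with IFNγ and 0, 3, 6 and 6 with T3 at 8, 24, 48 and 96 h. A required change of 2-fold left 4, 4 and 5 with IFNγ at 8, 24 and 96 h, and 0, 1 and 1 with T3 at 8, 24 and 48 h. Leaving out each donor gave 5 to 7 with IFNγ at 8 and at 24 h, 6 to 7 at 48 h and 6 to 8 at 96 h, 0 to 1 with T3 at 8 h, 2 to 3 with T3 at 24 h, and 1 to 2 for the difference between 96 h and 8 h. The number of all genes called with IFNγ moved under these settings too. It was higher with the block and lower with the 2-fold setting at 8, 24, 48 and 96 h. With only the compared groups it was lower at 8, 24 and 48 h and higher at 96 h. It was lower without donor 2 or 3 at each time. Without donor 1 it was higher at 8, 24 and 48 h and lower at 96 h. The counts of listed genes under these settings are hence not read as particular to these genes. Some of the fits had fewer arrays, and the cause of these shifts was not tested. With T3, only the compared groups in the fit lost Tnfrsf1a at 8 h (adjusted p = 0.0719) and Bak1 at 24 h (adjusted p = 0.169), and all probe sets tested lost Casp4 at 48 h (adjusted p = 0.0503). The call of Casp1 with IFNγ at 8 h was gained without donor 3 (adjusted p = 0.00739). The filter on dim probe sets dropped Casp8, so it has no value there. Without the 2 T3+IFNγ arrays of donor 2, added after the data were seen, 1 call of a listed gene was lost, Casp4 with T3 at 48 h (adjusted p = 0.0532). The 3 arrays a group limit the precision.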
